A study of Homo sapiens with 9 samples.

Results

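The 10 genes described here were taken by name: CA2, CA4, CA5A, CA5B, CA8, CA9, CA11, CA12, CA13 and CA14, the rows of the deposited gene tables that carry these carbonic anhydrase symbols. All 10 were found among 26475 genes, and each had at least 1 read count in at least 1 library. PolyA RNA of Hep3B cells, a long-established line from a human liver cancer, was sequenced. Every library, controls included, was from cells treated for 6 h under hypoxia, so no normoxic sample is part of the comparison. A replicated set has 3 libraries with DMSO, the solvent control, and 3 with a compound labelled DHE, and a dose set has 1 library each of DMSO, DHE labelled high and DHE labelled low. The labels expand DHE nowhere, give no concentration and do not say which dose the replicated set had. The study asks how DHE alters liver cancer cells in hypoxia. Replicates are not said to come from separate cultures, and the p-values below cover the spread between these libraries, which may be technical.

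Carbonic anhydrases interconvert carbon dioxide and water with bicarbonate and a proton at a zinc ion in the active site. CA9 and CA12 are membrane proteins whose catalytic domain faces outside the cell, where they help hypoxic tumour cells export the acid of glycolysis, and CA9 is a textbook target of the hypoxia-inducible factor HIF-1. CA14 is a further transmembrane form, CA4 is held at the membrane by a lipid anchor, CA2 and CA13 are cytosolic, and CA5A and CA5B work in mitochondria, CA5A mainly in liver. CA8 and CA11 are carbonic anhydrase-related proteins, which keep the fold without the enzyme activity.

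The bases before the annotated starts of CA9, CA12 and CA5B are shown because these genes changed most clearly with DHE and because the core of the hypoxia response element, the DNA word bound by HIF, can be looked for in them. Each run holds the 250 bases upstream of the start in RefSeq for GRCh38.p14, read 5′ to 3′ on the strand of the gene. Capitals mark matches to ACGTG or GCGTG, or to their reverse complements CACGT and CACGC.
CA9, chr9:35673678-35673927, plus strand: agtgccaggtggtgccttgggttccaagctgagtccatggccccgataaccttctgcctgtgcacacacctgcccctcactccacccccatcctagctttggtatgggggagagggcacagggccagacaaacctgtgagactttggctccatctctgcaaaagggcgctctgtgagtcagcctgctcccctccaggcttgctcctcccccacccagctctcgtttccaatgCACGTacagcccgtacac
CA12, chr15:63381847-63382096, minus strand: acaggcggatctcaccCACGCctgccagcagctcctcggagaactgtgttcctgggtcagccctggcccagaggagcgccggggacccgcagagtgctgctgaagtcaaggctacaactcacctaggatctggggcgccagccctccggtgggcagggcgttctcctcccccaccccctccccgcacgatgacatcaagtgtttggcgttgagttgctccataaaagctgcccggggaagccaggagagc
CA5B, chrX:15738020-15738269, plus strand: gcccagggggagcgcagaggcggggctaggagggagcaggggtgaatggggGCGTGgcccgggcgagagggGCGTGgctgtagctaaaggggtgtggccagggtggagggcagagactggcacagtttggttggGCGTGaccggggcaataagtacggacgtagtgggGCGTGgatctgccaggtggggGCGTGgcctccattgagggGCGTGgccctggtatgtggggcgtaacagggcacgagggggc

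CA9 had 1 match to ACGTG, on the opposite strand, whose first base as printed lies 18 bases before the start. CA12 had 1 match to GCGTG, also on the opposite strand, 234 bases before the start. CA5B had 6 matches to GCGTG, all on its own strand and 42 to 199 bases before the start, in a window with 69.2% G or C. Of the other members with a window, CA5A had 2 matches to GCGTG and CA14 had none to either word. No match overlapped another. Of 35116 promoter windows of this length, 18.5% held ACGTG, 32.2% held GCGTG and 43.2% held at least 1 of the words, so a match is common. The windows of CA2, CA4, CA8, CA11 and CA13 were not analysed here.

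Library totals ranged from 22167529 to 36267227 counts. A count of 0, which allows up to 3 counts, thus allowed up to 0.0827 to 0.135 CPM (counts-per-million of the library total) depending on the library, for counting error only. Among the DHE replicates, number 1 was the least like the others. A chi-square statistic averaged over genes put it at 30.2 and 35.8 from them, whereas they lay 5.58 from each other. All 9 hepatocyte markers were present, with ALB, the albumin gene, at 4040 TPM or more in every library. TPM (transcripts-per-million) is scaled for transcript length, so that levels of different genes can be set side by side. Markers of red cells, which are rich in carbonic anhydrase, were near 0, with a summed level of at most 0.23 TPM over 6 genes and HBA1 and HBB at 0 throughout. Endothelial markers summed to at most 1.83 TPM. Of 6 leukocyte markers the pan-leukocyte gene PTPRC reached at most 0.06 TPM. LYZ, the lysozyme gene, made up most of the sum of that list, which was 49.0 to 56.2 TPM with DMSO and 37.4 to 41.6 TPM with DHE in the replicated set. Fibroblast markers summed to 25.4 to 28.7 TPM with DMSO and 31.7 to 37.3 TPM with DHE there, with DCN and ACTA2 at 0. The part of these 2 lists in the results below was not tested.

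CA9 dominated the family in every library. With DMSO its level in the replicated set was 603, 666 and 715 TPM, above 99.2% to 99.3% of all genes, and it made up 95.4 ± 0.352% (SD, n = 3) of the summed level of the 10 genes. With DHE that share was 95.8 ± 0.459% (SD, n = 3). CA12 came second at 16.6 ± 1.60 TPM (SD, n = 3) with DMSO. The lowest CA9 library thus stood far above the highest CA12 library, which held 18.3 TPM.

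Below them lay 4 genes at a few TPM. CA11 had 5.40 ± 0.958 TPM and CA2 had 4.49 ± 0.914 TPM with DMSO (SD, n = 3 each), and their libraries overlapped. CA14 had 2.93 ± 0.696 TPM and CA5B had 2.27 ± 0.270 TPM, and these overlapped as well. The lowest CA2 library, at 3.47 TPM, barely exceeded the highest CA14 library, at 3.42 TPM, so that only the steps from CA9 to CA12, from CA12 to CA11 and from CA5B to CA13 were wide against the spread. With DHE the order of the means below CA12 was different. CA2 had 4.52 ± 0.904 TPM, CA11 3.57 ± 0.332 TPM, CA5B 3.57 ± 0.460 TPM and CA14 2.09 ± 0.637 TPM. The DHE libraries of CA2 (3.51 to 5.26 TPM), CA11 (3.21 to 3.86 TPM) and CA5B (3.27 to 4.1 TPM) overlapped. Those of CA14 reached at most 2.75 TPM, below all of these.

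The other 4 genes were barely detected. CA13 had 7 to 32 counts per library over both sets, or 0.297 ± 0.115 TPM with DMSO. CA4 was seen in a single library, DMSO replicate 2, with 3 counts, and its annotated span overlaps the well expressed gene USP32. CA5A, the mitochondrial form of normal liver, had 1 count in the DMSO library and 1 in the library labelled high of the dose set, and 0 elsewhere. CA8 had at most 9 counts in the replicated set but 39, 23 and 11 counts in the DMSO, high and low libraries of the dose set.

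**Figure D1:**
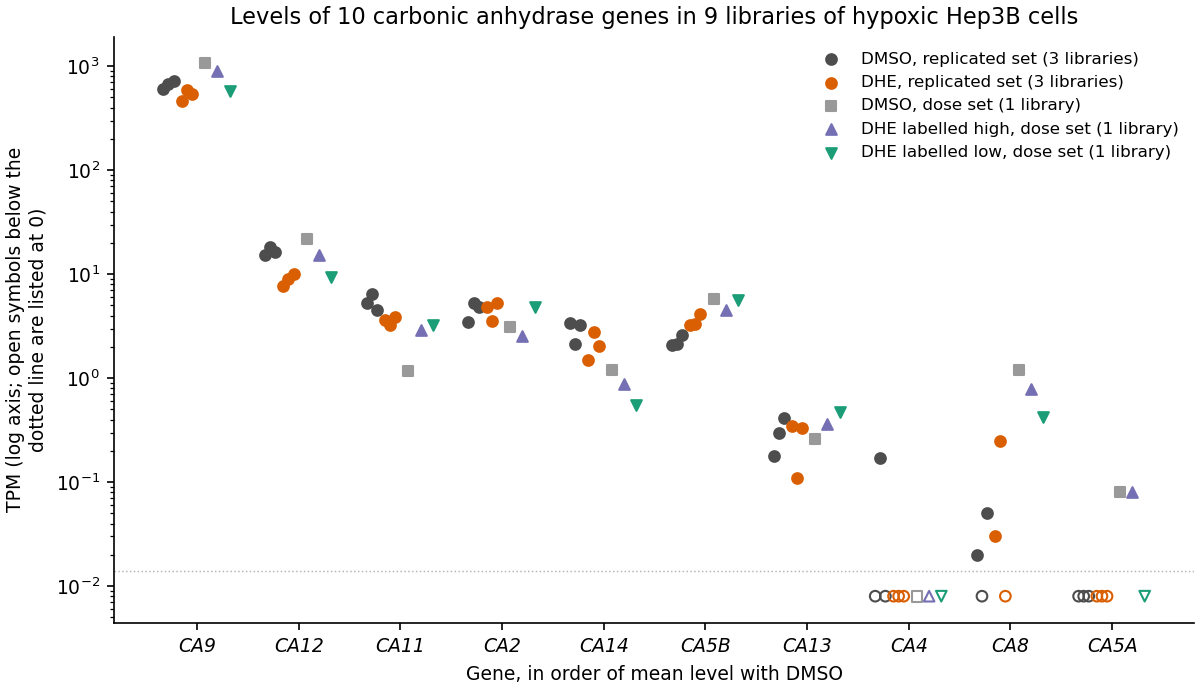
Level of each member in TPM (log axis) in each of the 9 libraries, with circles for the replicated set and squares and triangles for the dose set. CA9 sits between 466 and 1063 TPM in every library and CA12 between 7.70 and 21.7 TPM, while CA4, CA8 and CA5A are listed at 0 in several libraries (open symbols).

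In the replicated set CA9, CA12 and CA11 fell and CA5B rose with DHE, while CA2, CA13 and CA14 did not pass the test. The test was edgeR's quasi-likelihood test over all genes with Benjamini-Hochberg adjustment and a threshold of 0.05. CA4, CA5A and CA8 did not pass its filter on low counts and were not tested. Of all 14492 tested genes 26.2% were called, 12.8% lower and 13.4% higher, beside which the members' 3 lower and 1 higher are to be read, out of 10 in all and 7 tested. The members were chosen by family, and their counts say nothing on carbonic anhydrases as a class. Values per library are CPM scaled by TMM factors, which adjust library totals for composition.

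CA12, the second membrane-bound enzyme, fell most. It stood at 39.3, 43.0 and 38.1 CPM with DMSO and at 20.9, 19.7 and 22.7 CPM with DHE. The highest DHE library lay well below the lowest DMSO library, as the groups did in 41.6% of all tested genes in either direction. Its mean went from 40.2 ± 2.57 to 21.1 ± 1.48 CPM (SD, n = 3 each), a 1.90-fold fall with a log2 fold change of -0.93 ± 0.08 (SE, edgeR adjusted p = 8.95e-06). The call held in every alternative that was run, the largest adjusted p being 0.0357 with limma on log2(TPM + 0.1). The gene has 3 transcripts in the tables, and the mean transcript length that RSEM weighted by their shares stayed between 4202 and 4209 bases in the 9 libraries, with the groups overlapping. CA12 lies on chromosome 15 from 63321378 to 63381846 in GRCh38, where 2 annotated noncoding genes overlap it.

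CA9 fell less, though it is the gene of the family with by far the most mRNA. Its 3 DMSO libraries held 495, 499 and 542 CPM and its 3 DHE libraries 400, 415 and 392 CPM, with no overlap. The log2 fold change was -0.35 ± 0.05 (SE, n = 3 each, edgeR adjusted p = 5.58e-04). In TPM, where the groups did not overlap either, the mean went from 661 ± 55.9 to 531 ± 60.5, and the wider spread there came with no call by limma on log2(TPM + 1), at -0.32 (adjusted p = 0.173). CA9 lies on chromosome 9 from 35673928 to 35681159, and no other annotated gene overlaps it.

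The ratio of CA9 to CA12, the 2 enzymes best known from tumours, was higher in each DHE library. The CA9 level in TPM was 39.7, 36.4 and 44.1 times that of CA12 with DMSO, and 60.5, 65.2 and 54.3 times with DHE. All 3 DHE libraries lay above all 3 DMSO libraries (40.1 ± 3.87 and 60.0 ± 5.50, SD, n = 3 each, two-sided exact permutation p = 0.1, the smallest that 3 against 3 allow). This ratio, formed after the values had been seen, does not depend on the scaling between libraries. CA12 made up 2.39 ± 0.221% of the summed level of the members with DMSO and 1.61 ± 0.143% with DHE, and CA5B 0.327 ± 0.0203% and 0.647 ± 0.0879% (SD, n = 3 each). In the dose set the ratio of CA9 to CA12 was 49.1 with DMSO, 59.3 in the library labelled high and 60.5 in that labelled low.

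**Figure D2:**
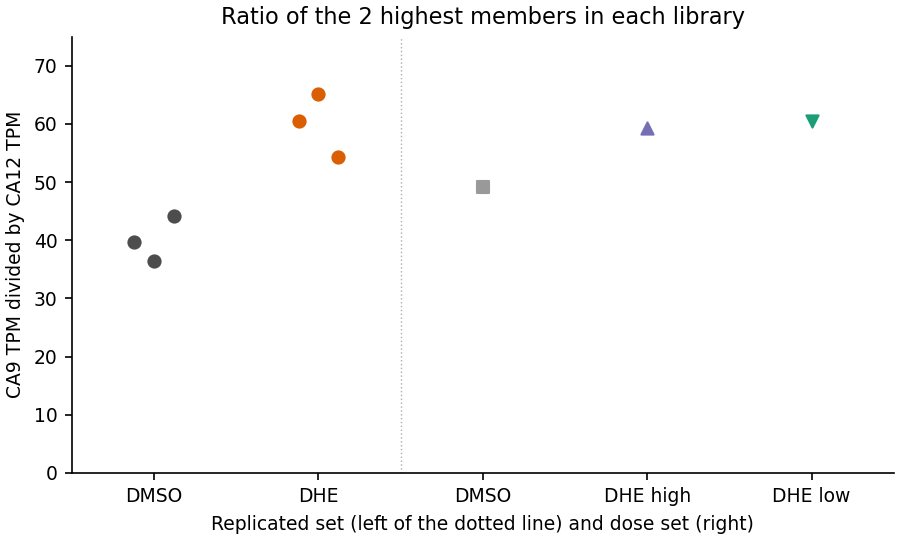
CA9 TPM divided by CA12 TPM in each library, from 0 on a linear axis. The 3 DHE libraries of the replicated set lie at 54.3 to 65.2 and the 3 DMSO libraries at 36.4 to 44.1, and in the dose set both DHE libraries lie above the DMSO library.

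CA5B, the widely expressed mitochondrial enzyme, was the member that rose. It had 7.98, 7.39 and 8.89 CPM with DMSO and 13.0, 10.8 and 13.6 CPM with DHE, so that every DHE library exceeded every DMSO library. The mean was 8.09 ± 0.754 CPM with DMSO and 12.5 ± 1.502 CPM with DHE (SD, n = 3 each). This is a 1.54-fold rise, or 0.62 ± 0.12 on the log2 scale (SE, edgeR adjusted p = 0.00236). CA5BP1, its neighbouring pseudogene, did not pass the test (-0.02 ± 0.20, edgeR adjusted p = 0.964), with 4.11 ± 0.753 CPM with DMSO and 4.08 ± 0.788 CPM with DHE. The pair share sequence, and reads could be split between them. An annotated readthrough transcript also spans CA5B, which lies on chromosome X from 15738270 to 15788411. With limma on log2(TPM + 0.1) the call of CA5B ended (0.63, adjusted p = 0.0724).

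CA11, the related protein without enzyme activity, was lower with DHE, on few counts and with a call close to the threshold. Its counts were 156, 184 and 134 with DMSO and 90, 78 and 103 with DHE. Scaled, these were 4.71, 5.17 and 3.68 CPM against 3.38, 2.46 and 3.003 CPM, and the groups did not overlap. The log2 fold change was -0.62 ± 0.20 (SE, n = 3 each, edgeR adjusted p = 0.0339). Leaving out a DMSO library ended the call for replicate 1 (adjusted p = 0.104) and replicate 2 (adjusted p = 0.128). Leaving out a DHE library did so for replicate 2 (adjusted p = 0.111) and replicate 3 (adjusted p = 0.0709). In those 4 fits the log2 fold change was -0.59, -0.51, -0.50 and -0.63. On chromosome 19, where CA11 spans 48637946 to 48646187, the pseudogene SEC1P overlaps it, with at most 7 counts in a library.

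The remaining tested members gave no call. CA14, the third transmembrane enzyme, had 113, 69 and 108 counts with DMSO and 41, 75 and 61 with DHE, with groups that overlapped. It lies on chromosome 1 from 150257774 to 150265078. Its log2 fold change was -0.54 ± 0.27 (SE, n = 3 each, edgeR adjusted p = 0.162). CA2, the fast cytosolic enzyme, stood at 3.78 ± 0.600 CPM with DMSO and 3.77 ± 0.937 CPM with DHE (-0.01 ± 0.21, edgeR adjusted p = 0.987). CA13, also cytosolic, was at -0.17 ± 0.52 (edgeR adjusted p = 0.844) on 7 to 32 counts, and no difference was detectable at this depth. Without DHE replicate 1, the library that stood apart, the log2 fold changes of CA12, CA9, CA5B and CA11 were -0.92, -0.34, 0.59 and -0.72, all called by edgeR.

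**Figure D3:**
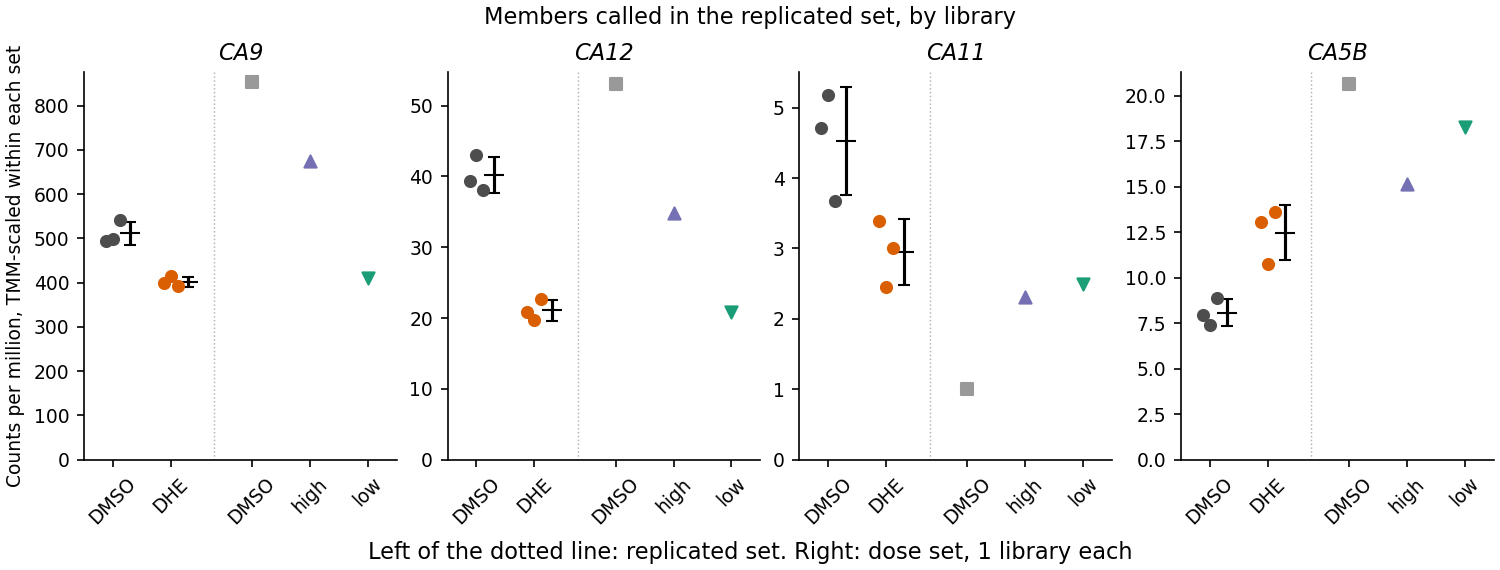
TMM-scaled CPM of the 4 members called in the replicated set, by library, each panel from 0 on its own linear axis, with the mean and SD of the 3 libraries in black. CA9, CA12 and CA11 are lower and CA5B is higher in all 3 DHE libraries of the replicated set. In the dose set, scaled on its own, CA11 is higher in both DHE libraries, and CA5B is lower at high and nearer to DMSO at low.

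In the dose set CA9 and CA12 were also lower with DHE, more so in the library labelled low than in that labelled high. With 1 library per condition there is no replicate check and no test. Each range in parentheses is a 95% interval from the binomial distribution (exact), covering counting error only. The ratios carry a prior count of 2, a small number added before the ratio is formed, and the intervals are of the counts without it. Ratios of genes with few counts are thus drawn toward no change. CA9 had 853 CPM with DMSO, 675 in the library labelled high and 412 in that labelled low. It was 1.26-fold lower at high (1.24 to 1.29) and 2.07-fold lower at low (2.02 to 2.12), and low was 1.64-fold below high (1.60 to 1.68). CA12 had 53.0, 34.8 and 20.8 CPM in the same order. That is 1.52-fold lower at high (1.40 to 1.66) and 2.54-fold lower at low (2.30 to 2.84), with low 1.67-fold below high (1.496 to 1.87). Changes of at least 2-fold downward were found in 3.39% of 13468 genes at high and in 6.6% at low. By that measure 0 members were lower at high and 4 at low, CA9, CA12, CA14 and CA8. Hence 0 members were lower by that much in both libraries, beside 2.33% of all genes. CA4 and CA5A had too few counts for this measure, and CA14 and CA8 had 11 counts each at low. These numbers of members say nothing on carbonic anhydrases as a class. CA9 missed 2-fold when scaled by library totals (log2 ratio -0.92) or in TPM (-0.90), against -1.05 here.

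CA14 and CA8 also had fewest counts in the library labelled low. CA14 had 30, 20 and 11 counts in the DMSO, high and low libraries, and was 2.25-fold lower at low (1.20 to 5.44). CA8, with 39, 23 and 11 counts, was 2.88-fold lower at low (1.61 to 6.93). With a prior count of 0.5 in place of 2, the log2 ratio at low was -1.26 for CA14 and -1.64 for CA8, against -1.17 and -1.53. At high the intervals of both included no change, and so did those of low against high (log2 ratio -0.64, from -1.94 to 0.40, for CA14 and -0.83, from -2.11 to 0.16, for CA8). The summed level of 9 hepatocyte markers was 36192 TPM with DMSO, 18836 TPM at high and 10421 TPM at low, of which ALB held 22740, 9544 and 5056 TPM. Of the 9, 6 had that order, while APOB, TTR and HNF4A were highest at high and lowest at low. In the replicated set that sum was 12101 to 12980 TPM with DMSO and 10711 to 12082 TPM with DHE. The sum hides a split list there. ALB (5110 to 5238 TPM with DMSO, 4040 to 4379 TPM with DHE), AFP and SERPINA1 were lower without overlap. APOA1 (760 to 800 TPM with DMSO, 958 to 979 TPM with DHE), TTR, FGB and HNF4A were higher without overlap, and APOB and TF overlapped. Fibroblast markers summed to 20.3 TPM with DMSO, 26.8 TPM at high and 47.3 TPM at low, which is the course of LUM alone (15.6, 24.3 and 45.5 TPM). In that list PDGFRB went the other way, with 3.6, 1.9 and 1.17 TPM, and COL1A1 was at 1.1, 0.55 and 0.63 TPM. The leukocyte markers, mostly LYZ, were at 134, 129 and 90.5 TPM. The part of these lists in the fall of CA9 and CA12 was not tested. In bulk RNA, fewer cells of a kind and less RNA per cell cannot be told apart.

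CA11, and at high CA5B, went the other way from the replicated set. CA11 had 26 counts with DMSO, 59 at high and 58 at low, which is 2.20-fold higher (1.42 to 3.79) and 2.36-fold higher (1.53 to 4.09). It was the member at least 2-fold higher at either dose, beside 0.943% of all genes at high and 3.04% at low. CA5B had 531, 387 and 425 counts, or 20.6, 15.2 and 18.3 CPM. It was thus 1.36-fold lower at high (1.19 to 1.55), while at low the interval of its ratio included no change (log2 ratio -0.17, from -0.36 to 0.01), and was -0.04 when scaled by library totals and -0.02 in TPM. CA2 had 69, 52 and 88 counts, with intervals that included no change at high and lay just above it at low (log2 ratio 0.49, from 0.03 to 0.98). CA13 had 15, 19 and 22 counts, and both intervals included no change. An edgeR fit over all 9 libraries, with the set as a covariate, ended the calls of CA5B (0.32, adjusted p = 0.200) and CA11 (-0.19, adjusted p = 0.698), while CA9 and CA12 kept theirs.

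**Figure D4:**
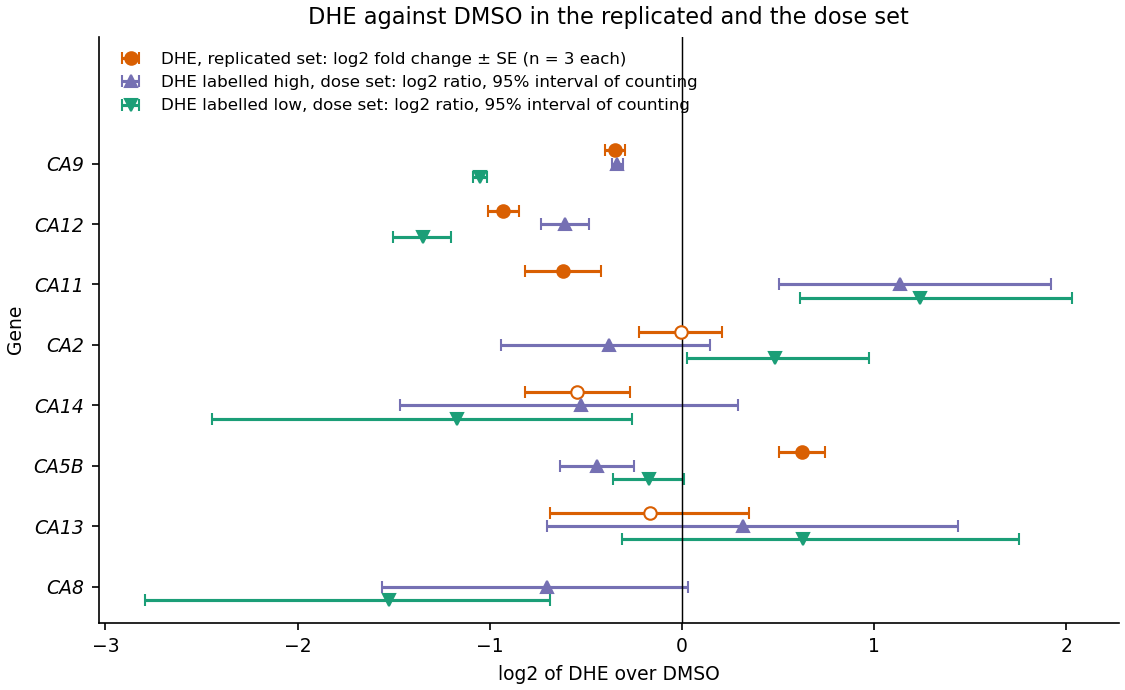
Log2 of DHE over DMSO for each member with enough counts. Circles give the replicated set with the SE of the edgeR fit (filled where called, n = 3 each), triangles the 2 dose libraries with 95% counting intervals. CA9 and CA12 lie below 0 in all 3 comparisons. CA14 does too, but without a call and with an interval at high that includes 0. CA11 lies on opposite sides of 0 in the replicated and the dose set. CA5B does so at high, while its interval at low reaches 0.

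The control libraries of both sets differed in the family as well. CA9 had 1063 TPM in the DMSO library of the dose set, above the 603 to 715 TPM of the 3 DMSO replicates. CA12 had 21.65 TPM there against 15.18 to 18.31 TPM, and CA2 had 3.08 TPM against 3.47 to 5.23 TPM. CA5B had 5.76 TPM there against 2.09 to 2.58 TPM, CA8 1.21 TPM against at most 0.05 TPM, CA11 1.17 TPM against 4.49 to 6.40 TPM, and CA14 1.21 TPM against 2.13 to 3.42 TPM. The set and any other difference between these libraries cannot be told apart, and no test was made.

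Over the 9 libraries, the genes whose log2 CPM followed CA9 most closely, among 10921 others with a mean of at least 5 CPM, were MOB3A (Pearson r = 0.989), LAPTM4B (0.985), UNC93B1 (0.984), SLC29A4 (0.983) and CTSD, the cathepsin D gene (0.980). Within the 6 libraries of the replicated set their r with CA9 was 0.936, 0.915, 0.966, 0.888 and 0.902. For CA12 they were HDAC11, a histone deacetylase gene (0.986), AHCY, which clears S-adenosylhomocysteine (0.977), MYO15B (0.976), PSRC1 (0.976) and COL8A2, a collagen gene (0.973). Within the replicated set these had an r with CA12 of 0.987, 0.974, 0.983, 0.990 and 0.957. CA9 and CA12 themselves had an r of 0.84 over 9 libraries and 0.92 over 6. These values describe points that share sets, treatment and scaling.

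The other genes of pH and bicarbonate handling moved in both directions, and no called one moved as far as CA12 or CA5B. Of 70 genes in 6 lists, 50 could be tested, of which 6 rose and 8 fell by edgeR. Of all tested genes 13.4% rose and 12.8% fell, and the 14 calls among 50 lie near that background of 26.2%, so neither this count nor those of the single lists below is a result about these genes as a class. Leaving out single libraries gave 2 to 5 higher and 5 to 8 lower, with 2 higher without DMSO replicate 2 or DMSO replicate 3, 3 higher without DHE replicate 3 and 5 lower without DMSO replicate 2. In those 6 fits 7 of the 14 kept their call throughout, while limma on log2(TPM + 1) called 0 of them. The other carbonic anhydrase genes CA1, CA3, CA6, CA7 and CA10 had too few counts to test.

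Bicarbonate transporters, which work beside the membrane-bound enzymes, had 0 higher and 2 lower of 8 tested, with a median log2 fold change of -0.17 beside -0.0034 over all genes, of which 26.2% were called. SLC4A4, a sodium bicarbonate cotransporter, fell from 150 ± 6.78 to 124 ± 4.57 CPM (SD, n = 3 each, -0.28, edgeR adjusted p = 0.00210). SLC26A6, an anion exchanger, fell from 60.7 ± 3.99 to 47.2 ± 3.43 CPM (-0.36, edgeR adjusted p = 0.00233). SLC4A3 was at -0.31 (edgeR adjusted p = 0.0550). The 6 tested sodium-proton exchangers had a median of -0.10 and 0 lower calls, and SLC9A7 (-0.20, edgeR adjusted p = 0.115) and SLC9A8 (-0.14, edgeR adjusted p = 0.366) did not pass.

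The genes of lactate transport split. SLC16A1, the lactate transporter MCT1, rose from 21.9 ± 1.17 to 28.3 ± 0.842 CPM (SD, n = 3 each, 0.37, edgeR adjusted p = 0.00437). BSG, the basigin chaperone of these transporters, fell from 933 ± 1.93 to 818 ± 6.65 CPM (-0.19, edgeR adjusted p = 0.0104), and SLC16A3, the hypoxia-induced transporter MCT4, was at -0.17 without passing (edgeR adjusted p = 0.0590). This list of 6 had 1 higher and 1 lower, beside 26.2% called of all genes, with a median of 0.06. Of 21 tested genes of the proton-pumping V-ATPase 3 rose and 2 fell, again beside 26.2% called of all genes, with a median of 0.10. ATP6V1D was at 0.25 (edgeR adjusted p = 0.0259), ATP6V0E1 at 0.21 (adjusted p = 0.0373) and ATP6AP1 at 0.15 (adjusted p = 0.0385). Each of the 5 V-ATPase calls ended without at least 3 of the 6 libraries left out in turn, with an adjusted p of up to 0.205.

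Enzymes that consume bicarbonate, several of them in mitochondria beside CA5B, had 1 higher and 3 lower of 8 tested, beside 13.4% higher and 12.8% lower of all genes, with a median of -0.20. ACACA, the acetyl-CoA carboxylase of fatty acid synthesis, rose from 96.8 ± 8.63 to 130 ± 12.1 CPM (SD, n = 3 each, 0.42, edgeR adjusted p = 0.00137). MCCC1, of leucine breakdown, fell from 51.9 ± 0.488 to 42.4 ± 1.59 CPM (-0.29, edgeR adjusted p = 0.00312). PCCB, of propionate metabolism, fell from 47.8 ± 1.34 to 38.8 ± 2.30 CPM (-0.30, edgeR adjusted p = 0.00498).

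**Figure D5:**
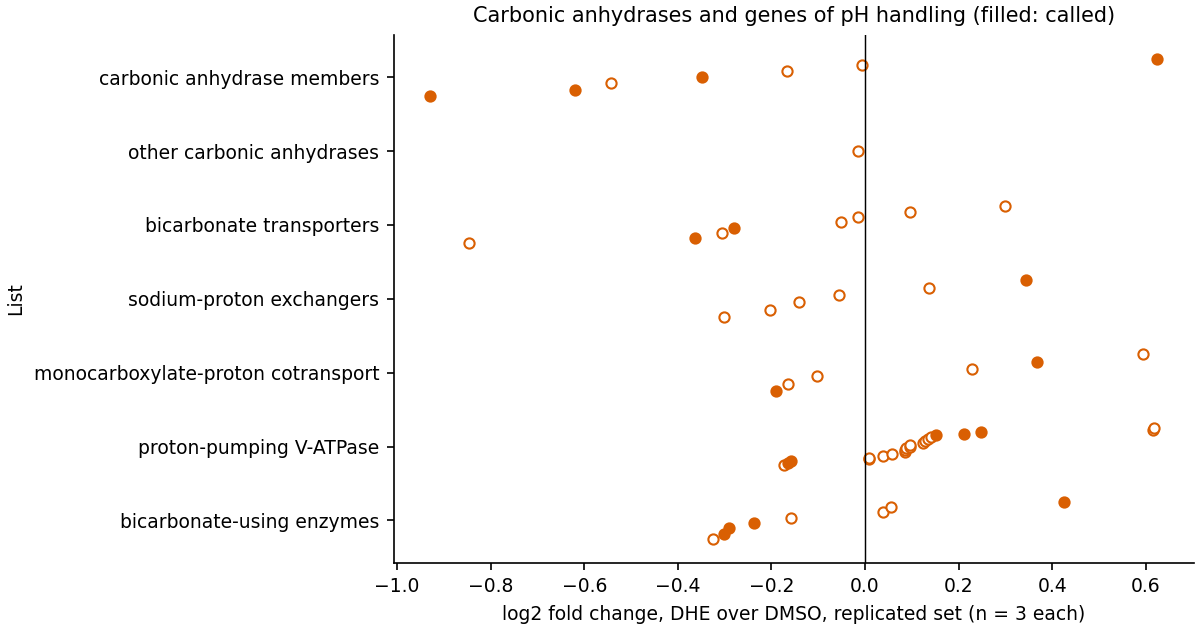
Log2 fold change with DHE in the replicated set for the 7 tested members (top row) and for the tested genes of the 6 lists, 1 symbol per gene, filled where edgeR's adjusted p was under 0.05. CA12 at -0.93 and CA5B at 0.62 lie farther from 0 than any called gene of the lists, of which ACACA at 0.42 is the farthest.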

How the data were processed

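Each of the 9 libraries has 1 table of RSEM gene results, grouped by its title. The deposited expected counts are RSEM's estimated counts per gene, not normalized, and the deposited TPM values were scaled by the authors' RSEM run for length and library total, both per the file headers. Transcript lengths, in bases, are also the deposited values. Per the submitters' processing notes, GRCh38 was the genome. Which aligner, RSEM version and strand setting were used is not stated in the labels or headers, which leaves overlapping genes and close copies uncertain.

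Expected counts were rounded and fitted with edgeR 4.0.16 in R 4.3.3 (TMM, default low-count filter by group, two-sided quasi-likelihood test, Benjamini-Hochberg over 14492 genes). The dose set got log2 ratios with a prior count of 2 for genes with at least 20 counts in 1 library. Alternatives used DESeq2 1.42.0 and limma 3.58.1. Figures used matplotlib 3.10.9. The fit was tested on simulated counts. Members and lists were chosen with earlier results of these data known. The genes named are the members, up to 3 genes per list with the smallest p, the 5 most alike in pattern to CA9 and CA12, and genes overlapping a member; some list results are not reported here. Alternatives changed the scaling, the tool, the unit, the filter, the libraries fitted and a replicate block.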

Additional observations from a re-analysis of the deposited data

Results flagged for a closer look

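CA5B and CA11 had values of opposite sign in the 2 sets. CA5B was higher in the replicated set (log2 fold change 0.62, higher in 3 of 3 DHE libraries) and lower in the dose set at high (-0.44). At low its value was -0.17, with a counting interval of -0.36 to 0.01, and -0.04 when scaled by library totals. CA11 was lower in the replicated set (-0.62, lower in 3 of 3) and higher in the dose set (1.13 at high, 1.24 at low). The difference between the sets was not tested.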

How the results depend on the processing

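CA9, CA12, CA11 and CA5B kept their direction in all 16 alternatives, and CA12 kept its call. Of these, the fit over all 9 libraries also took in the dose set, so its signs are not those of the replicated set alone. Limma on log2(TPM + 1) called 1 member higher and 1 lower, 0 list genes either way, and 352 genes higher and 362 lower of all. Limma on log2(TPM + 0.1) called 0 members higher and 1 lower, 0 list genes either way, and 115 genes higher and 146 lower. By these CA9 (adjusted p = 0.173 and 0.245) and CA11 (adjusted p = 0.0641 and 0.109) lost their calls. The fit over all 9 libraries, which pooled the doses, called 0 members higher and 2 lower, with 3 list genes higher and 5 lower. Of all 14421 genes tested in that fit, 1401 were higher and 1365 lower. The causes were not tested. DESeq2 called 2017 genes higher and 1910 lower, against 1945 and 1858 by edgeR.

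Leaving out single libraries gave 1 to 1 members higher and 2 to 3 lower, 2 to 5 list genes higher and 5 to 8 lower, and 1329 to 2032 genes higher and 1242 to 1948 lower of all. Without both number-1 libraries, an alternative chosen after seeing the data, CA11 lost its call (-0.69, adjusted p = 0.0773) and the other 3 members kept theirs. The direction of CA2 turned, never with a call, under limma on log2(TPM + 1) (0.0066), log2(TPM + 0.1) (0.0081) and over 9 libraries (0.027), and leaving out single libraries gave -0.14 to 0.19, above 0 without DMSO replicate 2 (0.09), DMSO replicate 3 (0.03) or DHE replicate 2 (0.19). CA13 likewise turned over 9 libraries (0.035), and leaving out single libraries gave -0.53 to 0.23, above 0 without DMSO replicate 3 (0.11) or DHE replicate 2 (0.23). In CPM, not scaled for length, the CA9 share was 89.5% with DMSO and 90.4% with DHE. The log2 ratio of CA9 in the library labelled high was -0.27 scaled by library totals and -0.23 in TPM.

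With the replicate number as a block, 1 member was higher and 3 lower, 6 list genes higher and 10 lower, and 2260 genes higher and 2191 lower. Deviations of same-numbered libraries from their group means had an r of 0.09, 0.05 and -0.05. Not every sample correlated best with its own number, so the numbers were not taken as a pairing. CA13, CA14 and CA8 rest on few counts, which limits their precision.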
